A study of Mus musculus with 6 samples.

Results

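Cytoplasmic ribosomal protein genes encode the proteins that, together with ribosomal RNA, build the large (60S) and small (40S) ribosomal subunits of the cytosol. They were followed here in early LPre-B (large pre-B) cells, a proliferating stage of B cell development in mouse bone marrow. Members were the rows of the deposited gene table whose Entrez ID carried a symbol of the form Rpl or Rps plus a number (with a trailing letter or number allowed), or *Rplp0*, *Rplp1*, *Rplp2* or *Rpsa*, with pseudogenes marked -ps left out. This rule used no measured value. It found 82 of the 13426 genes in the table, 49 of the large and 33 of the small subunit. *Rps4l*, annotated as a transcribed pseudogene, matched the rule and was kept. *Rpl39* of the large subunit had no row in the table, and neither did the paralogs *Rpl10l* and *Rpl39l*.

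The 6 libraries came from adult, age-matched mice on a C57BL/6 background. Ctrl mice were Upf1 Flox/Flox with Mb1 +/+, and Upf1-cKO mice were Upf1 Flox/Flox with Mb1 Cre/+, with 3 libraries in each group that the study describes as biological replicates. Both groups thus carried loxP sites around internal exons of *Upf1*, and the Ctrl group lacked Cre. Cre was expressed from the Mb1 (*Cd79a*) locus, which is active in B lineage cells from an early stage, and Ctrl mice kept both copies of that locus intact. Cells were sorted as large B lineage cells (B220+) with CD43 and without surface IgM, CD2 or lineage markers. Values are normalised reads, the deposited linear unit, in which 0.5 is added to a gene's read count and the sum is expressed per 1000000 reads of a scaled library size. Between 9732498 and 11006834 reads per library were recovered from these values. A single unnamed row took up 13.75% to 23.77% of a library's reads, more than any other.

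Ribosomal protein mRNAs are among the most abundant mRNAs of dividing cells, and the ribosome takes up nearly all of these proteins in equal numbers. Most of these mRNAs begin with a terminal oligopyrimidine (TOP) tract, through which mTORC1 signalling controls their translation and, with the protein LARP1, their stability. UPF1 is the RNA helicase of nonsense-mediated mRNA decay (NMD), which removes mRNAs whose stop codon lies well upstream of an exon junction. Some ribosomal protein genes are known to limit their own output by splicing in a segment with such a stop codon, called a poison exon. *Rpl3*, *Rpl10a* and *Rpl12* are reported examples. The comparison therefore asks how the level of these mRNAs differs when UPF1 is removed, and whether members differ from one another.

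The segments that GENCODE release M21 annotates in NMD transcripts of these 3 genes are printed because these genes stood apart from the other members in what follows. Each sequence is in GRCm38 (mm10), on the strand of the gene, 5′ to 3′, starts at the first base of the printed segment, which the principal coding transcript lacks, and ends with the in-frame stop codon in capitals. The *Rpl3* segment lies within an intron of the coding transcript on the minus strand (chr15:80081032-80081211, 180 bases) and 138 bases separate its stop codon from the last exon junction. The *Rpl10a* segment (chr17:28329048-28329280, plus strand, 233 bases, also intronic) reaches a stop codon within 16 bases, and the same transcript has 3 further added bases upstream of it that are not printed. The *Rpl12* segment (chr2:32961840-32961960, plus strand, 121 bases) holds no in-frame stop itself. It shifts the reading frame, so that a stop codon begins 95 bases after its end, in exon sequence shared with the coding transcript, and the run printed for it includes those bases.
Rpl3: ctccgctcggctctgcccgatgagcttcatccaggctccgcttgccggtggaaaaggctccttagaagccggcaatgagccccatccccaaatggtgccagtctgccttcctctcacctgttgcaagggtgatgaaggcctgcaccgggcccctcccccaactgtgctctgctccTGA
Rpl10a: gttggcaccgctcTAA
Rpl12: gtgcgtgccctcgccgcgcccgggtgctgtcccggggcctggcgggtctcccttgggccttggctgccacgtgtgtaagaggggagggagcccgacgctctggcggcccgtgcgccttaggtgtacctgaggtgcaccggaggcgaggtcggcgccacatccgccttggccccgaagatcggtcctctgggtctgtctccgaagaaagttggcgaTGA
A further 6 members have an annotated NMD transcript whose added segment reaches a stop codon within 60 bases, and they are shown for comparison because most of them did not share the direction of those 3 genes. They are *Rpl37a* (chr1:72713182-72713339, plus strand), *Rps13* (chr7:116333099-116333695, minus strand), *Rps18* (chr17:33953740-33953908, minus strand), *Rps19* (chr7:24886107-24886187, plus strand), *Rps27l* (chr9:66948641-66948717, plus strand) and *Rps9* (chr7:3706008-3706181, plus strand). Capitals again mark the stop codon.
Rpl37a: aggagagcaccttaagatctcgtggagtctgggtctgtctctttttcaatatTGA
Rps13: gtgagtgtTGA
Rps18: ggtttctctgtaTAG
Rps19: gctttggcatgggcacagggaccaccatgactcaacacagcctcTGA
Rps27l: agctgTGA
Rps9: cctttggagcTGA
Reads were counted per gene, so the values below hold the reads of the coding transcript and of these transcripts together and cannot tell them apart.

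Ribosomal protein mRNAs were mostly lower in Upf1-cKO than in Ctrl early LPre-B cells. By limma on log2(normalised reads + 1), with Benjamini-Hochberg adjustment over all 13426 genes and a call at adjusted *P* below 0.05, 63 of the 82 members were lower, 3 were higher and 16 were not called. Over all genes, 25.0% were called lower and 27.7% higher. The median log2 fold change of the members was -0.45, a level of 73.0% of Ctrl, and that of all genes was 0.01. A member's 3 Upf1-cKO values all lay below its 3 Ctrl values in 59 cases and above them in 4, against 28.0% and 30.9% of all genes, and the groups overlapped in 19. On the recovered reads, edgeR called 63 lower and 3 higher (24.9% and 27.2% of all genes) and DESeq2 64 and 3 (24.4% and 24.7%). With quantile normalization limma called 52 lower and 5 higher (27.9% and 24.8%). In bulk libraries, fewer cells of a type and less RNA per cell cannot be told apart.

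Most genes of both subunits were lower. Of the 49 large subunit genes, 36 were lower, 3 were higher and 10 were not called, with a median of -0.42. Among the 33 small subunit genes 27 were lower and 6 were not called, with a median of -0.46. All 3 higher members belonged to the large subunit. Summed normalised reads of the large subunit genes were 13928, 16061 and 16257 in Ctrl libraries 1, 2 and 3 and 11509, 11891 and 11912 in Upf1-cKO. For the small subunit genes these sums were 10278, 11645 and 11203 in Ctrl and 7924, 7989 and 8199 in Upf1-cKO. Both sums were lower in each Upf1-cKO library than in any Ctrl library. The ratio of the large to the small sum was 1.40 ± 0.0499 in Ctrl and 1.46 ± 0.0207 in Upf1-cKO (SD, n = 3 each), and every Upf1-cKO ratio lay above every Ctrl ratio, the nearest being 1.451 in Ctrl 3 and 1.452 in Upf1-cKO 1. With the 3 higher genes left out of the large subunit sum the ratio was 1.26 ± 0.0467 in Ctrl and 1.23 ± 0.0317 in Upf1-cKO, and the groups overlapped.

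**Figure D1:**
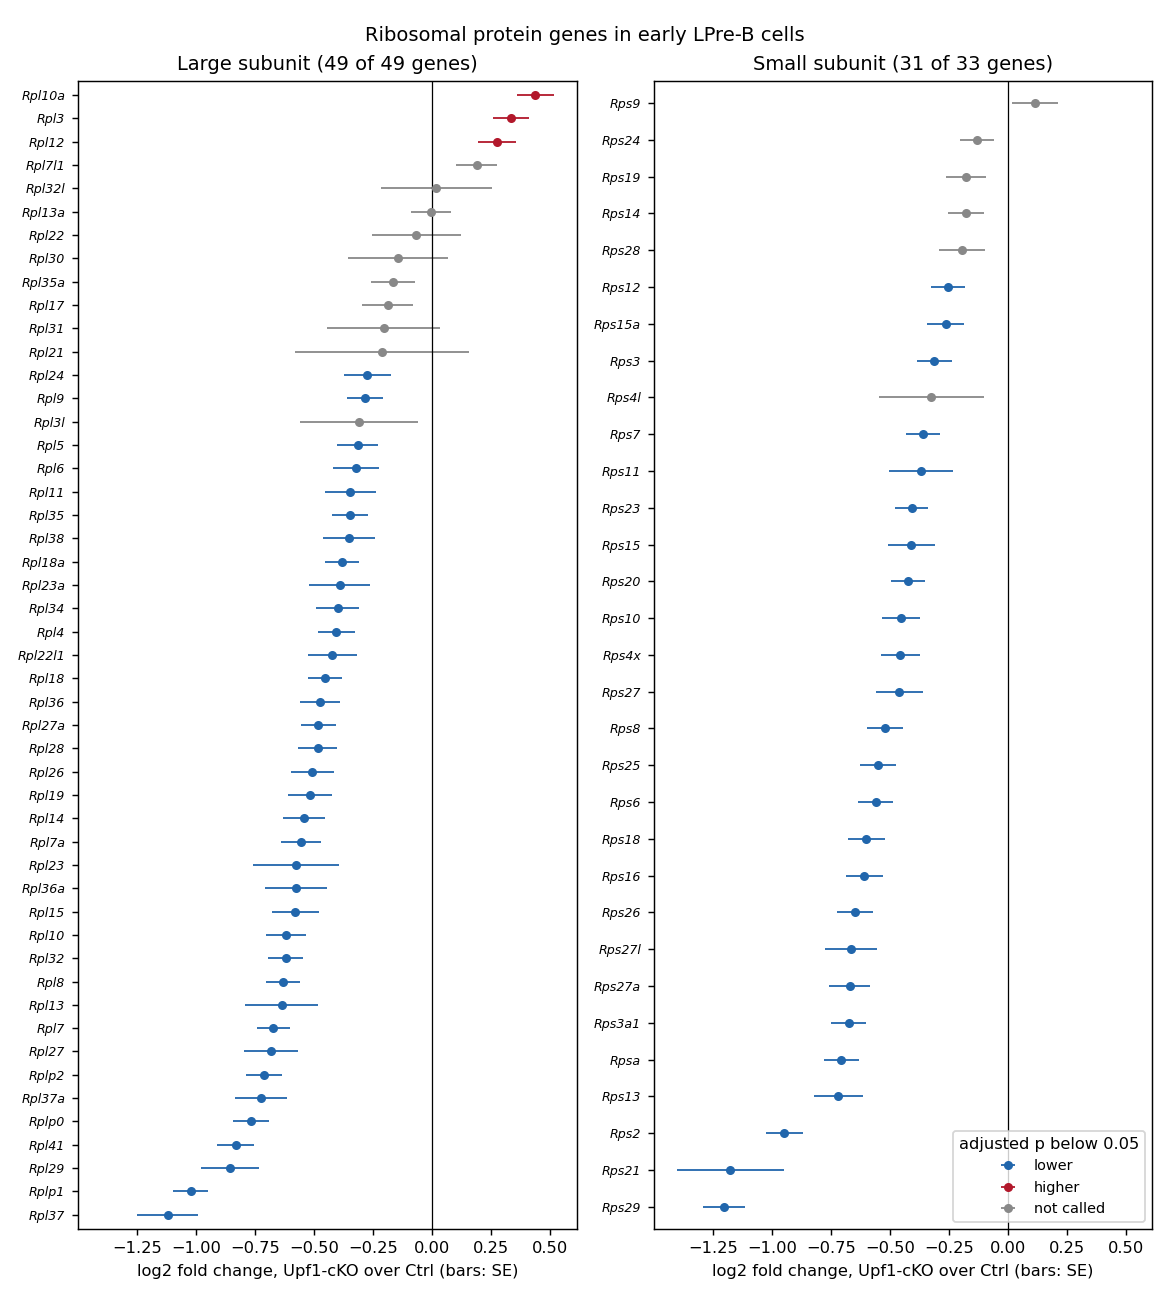
Log2 fold change (Upf1-cKO over Ctrl, x axis) of the 49 large subunit and 31 of the 33 small subunit genes, 1 gene per row, with bars for the moderated SE of limma (n = 3 libraries per group) and colours for the call at adj. P below 0.05. Blue points (61 lower) fill most of both panels, the 3 red points (higher) are all in the large subunit panel, and the lowest points are Rps29 at -1.20 and Rps21 at -1.18.

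All 82 members together summed to 26458 ± 1953.7 normalised reads in Ctrl and 19808 ± 344.66 in Upf1-cKO (SD, n = 3 each), 74.9% of Ctrl. The size of this difference depended on the scale. As a share of all recovered reads, the members made up 2.25%, 2.49% and 2.66% in Ctrl and 2.05%, 2.16% and 2.18% in Upf1-cKO, 86.2% of Ctrl. Leaving the unnamed row with the most reads out of the total, the shares were 3.11% ± 0.197 and 2.49% ± 0.0388, 80.1% of Ctrl. On all 3 scales the Upf1-cKO libraries lay below the Ctrl libraries. With libraries scaled to total reads, all genes had a median of 0.19, and the test gave 42 lower and 5 higher members, against 14.4% and 38.5% of all genes, and relative to that median the members' median was -0.44. With every library centred on its median, 69 members were lower and 2 higher, against 32.4% and 22.3% of all genes.

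Markers of other cell types also differed between the groups, and their part in these results was not tested. Summed normalised reads of 10 B lineage markers were 2573 to 2816 in Ctrl and 2859 to 3046 in Upf1-cKO, so B lineage genes were expressed in both groups. Of these 10, 2 were lower, 3 higher and 5 not called, and *Dntt*, the polymerase that adds bases at antigen receptor joints, was the most raised (188, 188 and 135 in Ctrl and 494, 504 and 584 in Upf1-cKO). Without *Dntt* the sums were 2439 to 2627 in Ctrl and 2355 to 2463 in Upf1-cKO and overlapped. *Cd79a*, the locus that carries Cre, was lower (-1.58), as was *Ptprc* (-0.84). The 9 myeloid markers summed to 67.0 to 133.7 in Ctrl and 272 to 375.1 in Upf1-cKO, with 5 of the 9 higher and 1 lower, and 1 to 4 higher when a library was left out. For all genes these shares were 27.7% higher and 25.0% lower with every library kept. Of 8 erythroid markers, 4 had a row and summed to 20.4 to 24.15 in Ctrl and 13.3 to 18.4 in Upf1-cKO, while the globin genes *Hba-a1*, *Hba-a2*, *Hbb-bs* and *Hbb-bt* had none. Only *Klrb1c* of 7 T and NK cell markers had a row, at 0.447 to 0.859 in Ctrl and 2.75 to 3.85 in Upf1-cKO. Markers of later B stages (*Cd2*, *Il2ra*, *Igkc*, *Ms4a1*) summed to 55.5 to 63.95 in Ctrl and 24.5 to 28.3 in Upf1-cKO. *Upf1* itself had 260.0, 203 and 259 in Ctrl and 308, 283 and 299.7 in Upf1-cKO normalised reads (log2 fold change 0.31 ± 0.09 (SE), adjusted *P* = 0.00696). The *Upf1* call was lost with median centring (0.20, adjusted *P* = 0.0645), with the length and GC trend removed (0.17, adjusted *P* = 0.0974) and without variance trend and robust estimation (adjusted *P* = 0.0685 by limma). The *Upf1* value does not check the deletion, since the count per gene includes the exons outside the loxP sites.

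*Rpl3*, *Rpl10a* and *Rpl12* rose in Upf1-cKO cells while most members fell. *Rpl3* encodes a large subunit protein that reaches to the peptidyl transferase centre, and its normalised reads were 731, 870.05 and 809 in Ctrl and 1029.5, 941 and 1061 in Upf1-cKO in libraries 1, 2 and 3 of each group (log2 fold change 0.33 ± 0.08 (SE), adjusted *P* = 0.00125). *Rpl10a*, whose protein forms the L1 stalk beside the exit site of transfer RNA, had 137, 149 and 134 in Ctrl and 189, 179 and 202 in Upf1-cKO (log2 fold change 0.44 ± 0.08 (SE), adjusted *P* = 0.000128). *Rpl12*, whose protein sits at the base of the stalk that receives translation factors, had 509, 599 and 639 in Ctrl and 697, 670.5 and 741 in Upf1-cKO (log2 fold change 0.28 ± 0.08 (SE), adjusted *P* = 0.00827). In each of these genes the lowest Upf1-cKO library was above the highest Ctrl library. The *Rpl12* call was lost when Upf1-cKO replicate 3 was left out (0.24, adjusted *P* = 0.0643 by limma), with median centring (0.17, adjusted *P* = 0.0918) and without variance trend and robust estimation (adjusted *P* = 0.0775), whereas *Rpl3* and *Rpl10a* were called higher under all 20 alternatives of the processing. All 3 belong to the list of reported poison-exon genes, which was drawn up with earlier results of these data known, so its count of 3 of 3 is not independent evidence of a direction.

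Set against the other members, the shift of these 3 genes was larger. Together they held 5.69%, 5.84% and 5.76% of the members' summed normalised reads in Ctrl libraries 1, 2 and 3 and 9.86%, 9.01% and 9.96% in Upf1-cKO. The normalised reads of *Rpl3*, not scaled to length, were 0.721 ± 0.0430 of those of *Rpl4*, another large subunit gene, in Ctrl. In Upf1-cKO they were 1.21 ± 0.0999 of those of *Rpl4* (SD, n = 3 each). The plot of members by library shows this separation in every Upf1-cKO library.

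**Figure D2:**
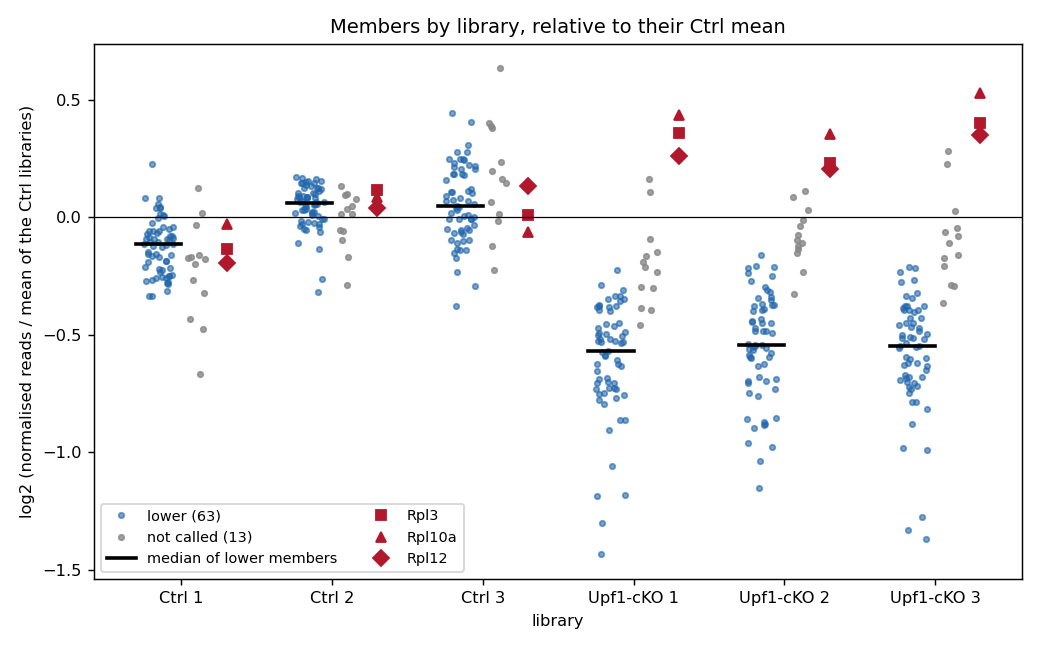
Each member's normalised reads divided by its mean over the Ctrl libraries (y axis, log2) in the 6 libraries (x axis), for the 79 members with a Ctrl mean of at least 10 normalised reads. Blue points are the 63 lower members with their median as a bar, which lies at -0.57, -0.54 and -0.55 in Upf1-cKO libraries 1, 2 and 3, grey points are 13 members not called, and red symbols are Rpl3, Rpl10a and Rpl12, which lie above 0 in each Upf1-cKO library.

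Members with an annotated NMD transcript were found among the lower, the higher and the uncalled members. Of the 82 members, 19 have at least 1 transcript that GENCODE marks as an NMD target, and 13 of them were lower, 3 higher and 3 not called, with a median log2 fold change of -0.38. Of the 63 members without one, 50 were lower, 0 higher and 13 not called, with a median of -0.46. The 3 higher members were all among the 19, and the difference between members with and without such a transcript was not tested. In the 10 members whose stop codon lies inside an added segment, 6 were lower, 2 higher and 2 not called (median -0.37, from -0.72 to 0.44). For the 9 members whose stop codon lies elsewhere, these counts were 7, 1 and 1 (median -0.38). Among other protein-coding genes of the table, 37.3% of the 3490 with an annotated NMD transcript were higher and 19.3% lower, and of the 8399 without one 26.2% were higher and 28.0% lower.

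The genes printed for comparison show the range among members with such segments. *Rps18*, a protein of the small subunit head, had 545, 658 and 656 in Ctrl and 407, 413 and 401 in Upf1-cKO normalised reads (log2 fold change -0.60 ± 0.08 (SE), adjusted *P* = 3.94e-06). *Rps13* had 103, 120.5 and 146 in Ctrl and 72.9, 76.9 and 71.4 in Upf1-cKO (log2 fold change -0.72 ± 0.10 (SE), adjusted *P* = 1.3e-05). *Rps9* of the small subunit body had 133, 128 and 104 in Ctrl and 131, 121 and 143 in Upf1-cKO and was not called (log2 fold change 0.12 ± 0.10 (SE), adjusted *P* = 0.326). *Rps18* and *Rps13* lay below Ctrl in every Upf1-cKO library, and the *Rps9* values overlapped between the groups. *Rps9* was the only small subunit member with a log2 fold change above 0. *Rps19*, the gene mutated most often in Diamond-Blackfan anaemia, had 250.3, 265 and 228 in Ctrl and 221, 198 and 239.7 in Upf1-cKO and was not called (log2 fold change -0.18 ± 0.08 (SE), adjusted *P* = 0.088), and *Rpl13a*, with 4 annotated NMD transcripts, the most of any member, had 443, 513 and 569 in Ctrl and 477, 520.1 and 518 in Upf1-cKO (log2 fold change -0.00 ± 0.08 (SE), adjusted *P* = 0.976). Values overlapped between the groups for both genes. *Rps9* was called higher on the scale of total reads (0.32, adjusted *P* = 0.00897 by limma) and with the length and GC trend removed (0.28, adjusted *P* = 0.0238).

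The 10 members that fell most had log2 fold changes from -1.20 to -0.72. *Rps29*, a small zinc-binding protein of the small subunit head, had 124, 122 and 106 in Ctrl and 51.7, 52.8 and 46.7 in Upf1-cKO normalised reads (log2 fold change -1.20 ± 0.09 (SE), adjusted *P* = 3.8e-09). *Rps21* had 86.9, 86 and 137 in Ctrl and 38.2, 55.9 and 40.0 in Upf1-cKO (log2 fold change -1.18 ± 0.23 (SE), adjusted *P* = 0.00523). *Rpl37*, another zinc-binding protein, had 133, 134 and 175 in Ctrl and 59.9, 81.5 and 61 in Upf1-cKO (log2 fold change -1.12 ± 0.13 (SE), adjusted *P* = 1.14e-05). In these 3 genes the Upf1-cKO libraries were well below the Ctrl libraries, although *Rps21* and *Rpl37* were also higher in Ctrl 3 than in Ctrl 1 and 2. *Rps2*, a protein at the mRNA entry of the small subunit, had 352, 405 and 343 in Ctrl and 196, 186 and 186 in Upf1-cKO (log2 fold change -0.95 ± 0.08 (SE), adjusted *P* = 1.14e-08). *Rpl29* had 34.5, 37.7 and 28.5 in Ctrl and 18.5, 17.3 and 18.3 in Upf1-cKO (log2 fold change -0.86 ± 0.12 (SE), adjusted *P* = 1.12e-05). The groups of both genes did not overlap either. *Rpl41*, the shortest of the ribosomal proteins, had 545, 673 and 605 in Ctrl and 335, 332 and 352 in Upf1-cKO (log2 fold change -0.83 ± 0.08 (SE), adjusted *P* = 7.05e-08). *Rpl37a* had 283, 301 and 219 in Ctrl and 173, 144 and 166 in Upf1-cKO (log2 fold change -0.72 ± 0.11 (SE), adjusted *P* = 4.78e-05). Both were lower in every Upf1-cKO library, and Ctrl 3 was the lowest Ctrl library for *Rpl37a*.

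The stalk of the large subunit, which recruits the GTPases that drive translation, is made of a protein encoded by *Rplp0* and of copies of those encoded by *Rplp1* and *Rplp2*. All 3 stalk genes were lower, with a median log2 fold change of -0.77. *Rplp0*, the base of the stalk, had 1021, 1092 and 922 in Ctrl and 594, 550.3 and 636 in Upf1-cKO normalised reads (log2 fold change -0.77 ± 0.08 (SE), adjusted *P* = 1.64e-07). *Rplp1* had 548, 629 and 561 in Ctrl and 278, 283 and 292 in Upf1-cKO (log2 fold change -1.02 ± 0.07 (SE), adjusted *P* = 2.05e-09). *Rplp2* had 338, 347 and 297 in Ctrl and 201, 197 and 199 in Upf1-cKO (log2 fold change -0.71 ± 0.08 (SE), adjusted *P* = 3.43e-07). In none of these 3 genes did the groups overlap. In normalised reads not scaled to length, *Rplp1* fell from 0.574 ± 0.0359 to 0.480 ± 0.0293 of *Rplp0*, with every Upf1-cKO ratio below every Ctrl ratio. *Rplp2* was 0.324 ± 0.00649 of *Rplp0* in Ctrl and 0.337 ± 0.0227 in Upf1-cKO (SD, n = 3 each), with overlapping groups. These ratios compare the groups and not the levels of the genes. Per kilobase of coding sequence, the Ctrl means were 1064 for *Rplp0*, 1694 for *Rplp1* and 949 for *Rplp2*.

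*Rpl5* and *Rpl11* encode the proteins that carry 5S ribosomal RNA and that, when not built into ribosomes, bind the p53 regulator MDM2. Both were lower, by less than the median member. *Rpl5* had 445, 520.1 and 588 in Ctrl and 405, 439.7 and 397 in Upf1-cKO normalised reads (log2 fold change -0.32 ± 0.09 (SE), adjusted *P* = 0.00585). *Rpl11* had 413, 505 and 577 in Ctrl and 362, 429 and 377 in Upf1-cKO (log2 fold change -0.34 ± 0.11 (SE), adjusted *P* = 0.0147), and its highest Upf1-cKO value lay above its lowest Ctrl value. The ratio of *Rpl5* to *Rpl11* in normalised reads, not scaled to length, was 1.04 ± 0.0322 in Ctrl and 1.06 ± 0.0486 in Upf1-cKO (SD, n = 3 each). Both calls were lost on the scale of total reads (-0.11 for *Rpl5* and -0.14 for *Rpl11*), with quantile normalization (-0.11 and -0.13) and without variance trend and robust estimation, and that of *Rpl11* also with the length and GC trend removed (-0.20) and without Ctrl 2, Upf1-cKO 1 or Upf1-cKO 3.

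Genes grouped by the site of their protein or by disease gave the following counts. They stand beside 76.8% lower and 3.66% higher among all members, and 25.0% and 27.7% among all genes. Of 7 genes for proteins around the decoding site and mRNA entry, 6 were lower and 1, *Rps14*, was not called, with a median of -0.41. On total reads 4 of them were lower (median -0.21), and *Rps3* (-0.11, adjusted *P* = 0.258 by limma) and *Rps15* (-0.21, adjusted *P* = 0.152) lost their calls. The log2 fold change was -0.95 for *Rps2* and -0.67 for *Rps27a*. Around the exit tunnel and on the L1 stalk, 4 of 7 genes were lower, 1 (*Rpl10a*) was higher and 2 (*Rpl22* and *Rpl17*) were not called, with a median of -0.35. *Rpl26* (-0.51) and *Rpl4* (-0.41), whose proteins lie at the tunnel through which the nascent chain leaves, were among the lower ones. The *Rpl4* call was lost on the scale of total reads (-0.20) and with quantile normalization (-0.10). On total reads *Rpl26* alone of these 7 was called lower, since *Rpl23a* (-0.19, adjusted *P* = 0.312 by limma) and *Rpl35* (-0.14, adjusted *P* = 0.132) also lost their calls, and *Rpl23a* was called under only 13 of the 20 alternatives. Of 18 genes linked to Diamond-Blackfan anaemia, an inherited failure of red cell production, 13 (72.2%) were lower, 0 higher and 5 not called, with a median of -0.41. This share of lower genes was near that of all members. The lower genes included *Rps29* (-1.20), *Rpl27* (-0.68) and *Rps26* (-0.65).

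Paralogs, further copies of ribosomal protein genes with their own expression, were compared with their parent genes. *Rps27l*, a target of p53, had 48.2, 58.2 and 66.3 in Ctrl and 34.3, 38 and 34.7 in Upf1-cKO normalised reads and its parent *Rps27* had 62.1, 61.4 and 75 in Ctrl and 47.2, 50.9 and 45 in Upf1-cKO, and both were lower (-0.67 and -0.46 on the log2 scale, adjusted *P* = 6.16e-05 and 0.000712). *Rpl22l1*, which the protein of *Rpl22* is known to repress, had 43.5, 54.3 and 48.5 in Ctrl and 38.3, 34.8 and 34.9 in Upf1-cKO and was lower (log2 fold change -0.42 ± 0.10 (SE), adjusted *P* = 0.00211). *Rpl22*, which is needed in lymphocyte development, had 123, 137 and 202 in Ctrl and 133, 164 and 136 in Upf1-cKO and was not called (log2 fold change -0.07 ± 0.19 (SE), adjusted *P* = 0.795). The calls of *Rps27* and *Rpl22l1* were lost on the scale of total reads (-0.26 and -0.22) and with the length and GC trend removed (-0.14, adjusted *P* = 0.184, and -0.18, adjusted *P* = 0.143, by limma). The *Rpl22* values of the groups overlapped, with Ctrl 3 the highest of the 6 libraries. *Rpl36al*, which the rule did not match, had 18.9, 23.1 and 24.7 in Ctrl and 12.9, 14.5 and 14.1 in Upf1-cKO and was lower (-0.64, adjusted *P* = 0.000611), as was its parent *Rpl36a* (-0.58, adjusted *P* = 0.00290).

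*Rpl7l1* differed from its parent. *Rpl7*, a large subunit gene, had 611, 669 and 639.8 in Ctrl and 387, 393 and 425 in Upf1-cKO normalised reads and was lower (log2 fold change -0.67 ± 0.07 (SE), adjusted *P* = 2.79e-07). *Rpl7l1* had 91.7, 110.2 and 108 in Ctrl and 116, 112 and 126 in Upf1-cKO and was not called (log2 fold change 0.19 ± 0.09 (SE), adjusted *P* = 0.0791), although every Upf1-cKO value lay above every Ctrl value, and it was called higher on the scale of total reads (0.39, adjusted *P* = 0.00192 by limma) and without Ctrl 2 (0.24, adjusted *P* = 0.0431), and also with quantile normalization and on total reads without the unnamed row with the most reads. The ratio of *Rpl7l1* to *Rpl7* in normalised reads, not scaled to length, was 0.150, 0.165 and 0.169 in Ctrl libraries 1, 2 and 3 and 0.299, 0.284 and 0.296 in Upf1-cKO. No test was run on this ratio, and its groups lay far apart. *Rpl10*, a protein added late to the large subunit, was lower (-0.62), and so was *Rps4x* (-0.46). *Rpl3l*, a form of striated muscle, *Rps4l* and *Rpl32l* stayed at low levels, with at most 5.47 normalised reads in any library, and none was called.

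Several members varied more within a group than between the groups. *Rpl21* had 37.4, 48.6 and 92.1 in Ctrl and 43.2, 54.1 and 46.1 in Upf1-cKO normalised reads (log2 fold change -0.21 ± 0.37 (SE), adjusted *P* = 0.673). *Rpl31* had 161, 216 and 295 in Ctrl and 172, 212 and 183 in Upf1-cKO (log2 fold change -0.20 ± 0.24 (SE), adjusted *P* = 0.518). *Rpl30* had 216, 280.1 and 379 in Ctrl and 238, 284 and 253 in Upf1-cKO (log2 fold change -0.14 ± 0.21 (SE), adjusted *P* = 0.614). In each of them Ctrl 3 was the highest of the 6 libraries and the groups overlapped, so no difference was called. Without Ctrl 3, the log2 fold changes of *Rpl21*, *Rpl31*, *Rpl30* and *Rpl22* were 0.15, 0.02, 0.06 and 0.14, above 0 in place of below it, and none of them was called. Without Ctrl 1, *Rpl31* and *Rpl30* were called lower (-0.42, adjusted *P* = 0.0362, and -0.34, adjusted *P* = 0.048, by limma). The other members that were not called were *Rpl13a*, *Rpl17*, *Rpl35a*, *Rps14*, *Rps19*, *Rps24*, *Rps28*, *Rps9*, *Rpl7l1*, *Rpl3l*, *Rpl32l* and *Rps4l*. With median centring *Rps14*, *Rps19*, *Rps24*, *Rps28*, *Rpl35a* and *Rpl17* were called lower, and without Ctrl 1 *Rps14*, *Rps28* and *Rpl35a* were. *Rps19* was also called lower without Ctrl 3 (-0.23, adjusted *P* = 0.0267 by limma), and *Rps14* by DESeq2 on the recovered reads (-0.20, adjusted *P* = 0.0435).

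Across the 79 members with a Ctrl mean of at least 10 normalised reads, Ctrl 1 was the lowest Ctrl library for 57, and Ctrl 3 was the highest for 40 and the lowest for 18. Upf1-cKO 2 was the highest of its group for 33 members, 28 of which were also highest in Ctrl 3. Members high in Ctrl 3 against the other Ctrl libraries tended to be those high in Upf1-cKO 2 against its group (Pearson's r = 0.80, Spearman's rho = 0.81 across 79 genes, which share libraries and are not independent). The same ratio in Ctrl 3 had r = -0.27 with the GC content of the transcript and r = -0.09 with its log2 length. For the log2 fold change between the groups, r was 0.22 with log2 transcript length, -0.09 with GC content, -0.06 with the log2 level in Ctrl and 0.12 with the number of -ps copies annotated for the gene. Without Ctrl 1, 67 members were lower and 3 higher, against 25.0% and 27.1% of all genes. These counts were 60 and 3 without Ctrl 3 (23.6% and 26.3% of all genes) and 63 and 3 without Upf1-cKO 2 (22.2% and 24.4%).

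**Figure D3:**
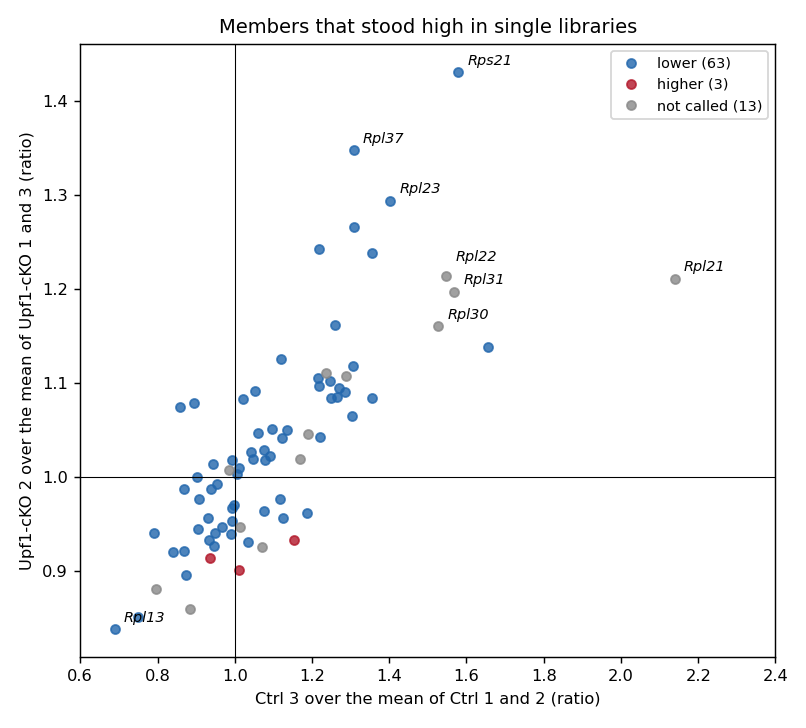
For 79 members, the ratio of Ctrl 3 to the mean of Ctrl 1 and 2 (x axis) against the ratio of Upf1-cKO 2 to the mean of Upf1-cKO 1 and 3 (y axis), coloured by call, with lines at equal values. Points run from low left to upper right, with Rpl21 farthest right at 2.14 and Rps21 highest at 1.43, and the members above 1.5 on the x axis number 6.

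Levels of different members were compared per kilobase of coding sequence. *Rpl41* came highest at 8099 ± 852 normalised reads per kilobase in Ctrl (SD, n = 3), but its coding sequence has 75 bases within a transcript of 582, so this value counts many reads from outside the coding part. It was followed by *Rps14* (1947 ± 196), *Rps3* (1794 ± 139), *Rplp1* (1694 ± 129) and *Rps18* (1359 ± 142), and the ranges of mean ± SD overlapped between *Rps14* and *Rps3* and between *Rps3* and *Rplp1*. The lowest of the 79 were *Rpl13* (35.8 ± 7.41), *Rpl29* (70.0 ± 9.7) and *Rpl21* (124 ± 60.1). Ribosomal protein genes have many processed pseudogenes of nearly the same sequence (*Rpl31* has 24 annotated -ps copies and *Rps12* 23), and the part that reads fitting several copies have in these levels was not tested, so the order of members is uncertain. The order was nearly the same in Upf1-cKO (Pearson's r = 0.96, Spearman's rho = 0.95 across the 79 genes on the log2 scale).

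**Figure D4:**
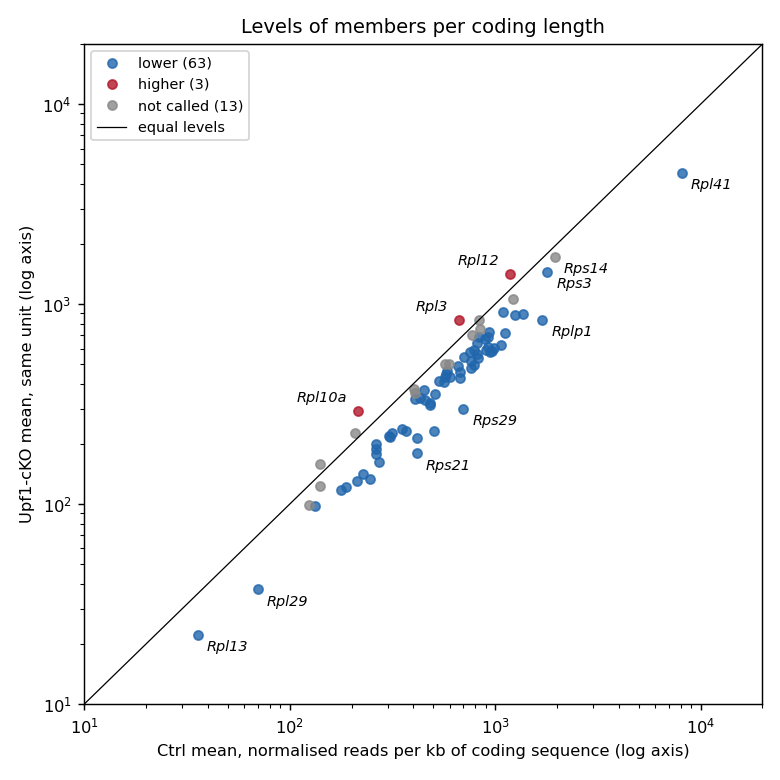
Mean normalised reads per kilobase of coding sequence in Ctrl (x axis, log) and in Upf1-cKO (y axis, log) for 79 members, coloured by call, with the line of equal levels. The 63 lower members lie under the line over the whole range of levels. Rpl3, Rpl10a and Rpl12 lie above it, at 664, 216 and 1176 in Ctrl, so that Rpl10a is among the members of lower level.

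Ribosomal components that the symbol rule leaves out were lower as well. *Fau*, a ubiquitin-like protein fused to a small subunit protein, had 146, 144 and 123 in Ctrl and 90.8, 86.9 and 103 in Upf1-cKO normalised reads (log2 fold change -0.55 ± 0.09 (SE), adjusted *P* = 5.32e-05). *Rack1*, a scaffold protein of the small subunit, had 470.2, 537 and 479 in Ctrl and 364, 339 and 363 in Upf1-cKO (log2 fold change -0.48 ± 0.07 (SE), adjusted *P* = 2.75e-05). In both genes the groups did not overlap. With *Rpl36al* among them, 4 of 4 listed genes of this kind were lower, against 25.0% of all genes, with a median of -0.52.

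Other mRNAs with a TOP tract moved in the same direction. The counts in this paragraph stand beside 25.0% lower and 27.7% higher over all genes. Of 18 listed genes, which include the *Fau* and *Rack1* just described, 17 were lower, 0 higher and 1 (*Vim*, called higher on total reads) not called, with a median log2 fold change of -0.53. *Pabpc1*, the cytoplasmic poly(A)-binding protein, had 2005, 2340.4 and 2177 in Ctrl and 1147, 1156 and 1166 in Upf1-cKO normalised reads (log2 fold change -0.91 ± 0.07 (SE), adjusted *P* = 4.35e-09). *Hnrnpa1*, a splicing regulator, had 585, 670.1 and 707 in Ctrl and 319, 383 and 348 in Upf1-cKO (log2 fold change -0.90 ± 0.08 (SE), adjusted *P* = 6.01e-08). *Npm1*, a nucleolar chaperone of ribosome assembly, had 607, 907 and 1016 in Ctrl and 459, 573 and 476 in Upf1-cKO (log2 fold change -0.72 ± 0.22 (SE), adjusted *P* = 0.0399). All 3 were lower in every Upf1-cKO library, but *Npm1* spread widely among the Ctrl libraries, and its call was lost on total reads, with quantile normalization and without Ctrl 2, Ctrl 3, Upf1-cKO 1 or Upf1-cKO 3 (adjusted *P* from 0.0608 to 0.144 by limma). Of 77 mitochondrial ribosomal protein genes, which serve a separate ribosome, 40 were lower, 4 higher and 33 not called, with a median of -0.36.

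Genes that act on ribosomal protein mRNAs or on the assembled subunits were called in both directions, and their counts below stand beside 25.0% lower and 27.7% higher over all genes. Of 16 genes of mTORC1 signalling and TOP mRNA control, 4 were lower, 7 higher and 5 not called, with a median of 0.13. *Tsc1*, which restrains mTORC1, had 86.9, 74.5 and 80.2 in Ctrl and 143, 139 and 145 in Upf1-cKO normalised reads (log2 fold change 0.82 ± 0.08 (SE), adjusted *P* = 1.45e-07). *Eif4ebp2*, a repressor of the cap-binding protein eIF4E, had 97.5, 90.8 and 86.7 in Ctrl and 49.5, 51 and 48.5 in Upf1-cKO (log2 fold change -0.87 ± 0.09 (SE), adjusted *P* = 1.2e-07), whereas *Eif4ebp1*, of the same function, had 22.1, 21.5 and 14.7 in Ctrl and 32.5, 33 and 33.3 in Upf1-cKO (log2 fold change 0.75 ± 0.14 (SE), adjusted *P* = 0.000147). *Mlst8*, a subunit of mTORC1, was also higher (0.75). *Larp1* was not called (0.05, adjusted *P* = 0.624), but was called higher on total reads (0.25) and with quantile normalization (0.26).

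Of 17 chaperones of ribosomal proteins and factors of late subunit assembly, 2 were lower, 5 higher and 10 not called, with a median of 0.17. *Tsr2*, the chaperone that delivers the protein of *Rps26*, had 22.6, 27.8 and 25.3 in Ctrl and 72, 70.0 and 67.8 in Upf1-cKO normalised reads (log2 fold change 1.44 ± 0.10 (SE), adjusted *P* = 1.51e-09), while *Rps26* itself had 215, 237 and 243 in Ctrl and 155, 144 and 144 in Upf1-cKO (log2 fold change -0.65 ± 0.08 (SE), adjusted *P* = 1.2e-06). *Sbds*, which with *Efl1* frees the large subunit of the factor eIF6, had 41.2, 51.2 and 51.5 in Ctrl and 109, 116 and 121 in Upf1-cKO (log2 fold change 1.25 ± 0.10 (SE), adjusted *P* = 4.57e-09). *Efl1* had 41.3, 42.8 and 45.8 in Ctrl and 93.5, 90.3 and 95.3 in Upf1-cKO (log2 fold change 1.09 ± 0.09 (SE), adjusted *P* = 7.25e-09). In these 3 assembly genes every Upf1-cKO library lay far above every Ctrl library. *Bccip* was lower (-0.56).

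Of 11 genes of ribosome surveillance, 3 were lower, 3 higher and 5 not called, with a median of -0.02. *Pelo*, which splits stalled ribosomes, had 16.7, 18.5 and 16.8 in Ctrl and 6.49, 8.07 and 9.91 in Upf1-cKO normalised reads (log2 fold change -1.02 ± 0.16 (SE), adjusted *P* = 2.9e-05). *Rnf25*, a ubiquitin ligase that acts on stalled ribosomes, had 12.3, 10.8 and 12.8 in Ctrl and 28, 28.4 and 28.3 in Upf1-cKO (log2 fold change 1.18 ± 0.12 (SE), adjusted *P* = 2.85e-07). *Gtpbp2*, which is linked to stalled ribosomes in neurons, was higher (0.55) and *Rnf10*, a ubiquitin ligase for small subunit proteins, lower (-0.32), the latter call being lost on total reads (-0.11). On the scale of total reads, where 14.4% of all genes were lower and 38.5% higher, the counts of lower and higher genes were 1 and 5 for surveillance, 1 and 9 for chaperones and assembly and 1 and 10 for mTORC1 and TOP mRNA control. On that scale they were 7 and 0 for the genes linked to Diamond-Blackfan anaemia, 13 and 1 for the other TOP mRNAs and 24 and 8 for the mitochondrial ribosomal proteins. Without Upf1-cKO 1, 2 or 3, the mitochondrial ribosomal proteins had 34 to 36 lower and 1 to 2 higher genes. The mTORC1 list had 2 lower genes without Upf1-cKO 3, and the assembly list 4 without Ctrl 1.

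**Figure D5:**
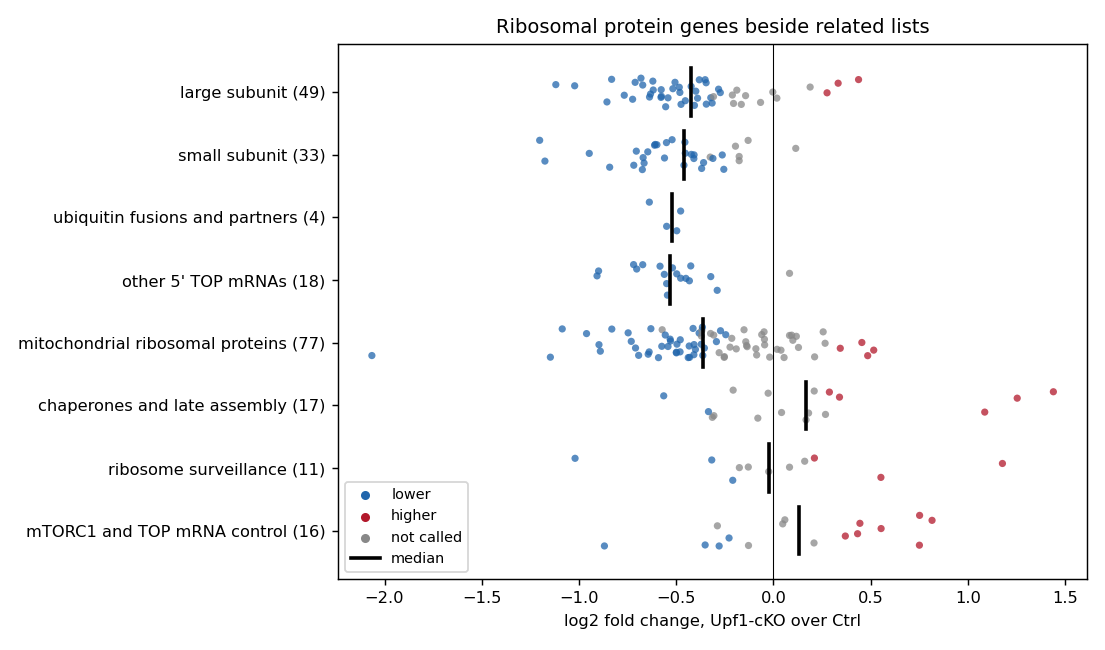
Log2 fold change (Upf1-cKO over Ctrl, x axis) of single genes in the ribosomal protein groups and related lists (rows, with the number of genes), coloured by call, with the median of each row as a bar. The medians of the 2 subunits (-0.42 and -0.46), the partners (-0.52) and the other TOP mRNAs (-0.53) lie to the left of that of the mitochondrial ribosomal proteins (-0.36), and those of the 3 lists of assembly, surveillance and control genes lie between -0.02 and 0.17.

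Many ribosomal protein genes hold small nucleolar RNA (snoRNA) genes in their introns. Of the 29 members with an annotated snoRNA gene inside, 23 were lower, 2 higher and 4 not called (median -0.42), and of the 53 without one these counts were 40, 1 and 12 (median -0.46). The share of lower genes was 79.3% with and 75.5% without a snoRNA gene, beside 76.8% of all members and 25.0% of all genes. That of higher genes was 6.9% and 1.89%, beside 3.66% and 27.7%.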

How the data were processed

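RNA from sorted early LPre-B cells was depleted of ribosomal RNA and sequenced from a single end. Per the study's methods and the submitters' processing notes, the authors trimmed reads with cutadapt 4.0, aligned them with HISAT2 to mm10, ignoring strand, and assigned them to genes with featureCounts 2.0.1. The deposited values are a linear signal per gene and library, reads plus 0.5 per effective library size (normalised reads). Whole reads were recovered for 100% of values (tolerance 0.02), 9732498 to 11006834 per library. This depth covers counting error only. Genes were named from RefSeq GRCm38.p6 (13008) and GENCODE M21 (3), and 415 stayed unnamed. GENCODE also gave transcripts, lengths and sequences.

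The deposited signal was tested as log2(value + 1), pseudocount 1, with limma 3.58.1 in R 4.3.3 (eBayes with intensity trend and robust estimation, group only, Benjamini-Hochberg adjustment over all genes, checked on simulated data). All adjusted p-values are from this fit unless stated. Fold changes on this scale understate those of low genes. Alternatives were the replicate block, no trend, voom, edgeR 4.0.16 and DESeq2 1.42.0 on recovered reads, other scalings, filters and pseudocount, leaving out each library and, chosen after seeing the data, removal of a length and GC trend.

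The members and lists were chosen with earlier results of these data known. Genes named were *Upf1*, members called against the common direction, the 10 largest falls, members of the 5S RNP, stalk, poison-exon and paralog lists with parents and partners, members not called, and at most 4 called genes of each other list by size. *Rps18*, *Rps13*, *Larp1*, *Vim*, *Dntt*, *Cd79a*, *Ptprc*, the listed marker genes and the genes named for their level per length were named for an annotated sequence, a role or a level, after values were seen. Per-length levels used the coding length of the principal transcript. Values of some genes that this rule names are not reported here.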

Additional observations from a re-analysis of the deposited data

How the results depend on the processing

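The median log2 fold change of the members stayed below 0 under all 20 alternatives, and 41 of the 63 lower members, 2 of the 3 higher members and 2 of the 16 others (*Rpl21* and *Rpl22*) had the same call under each of them. *Rps4l*, *Rpl3l* and *Rpl32l* were not called under any of the 18 or 19 alternatives that kept them. Ctrl and Upf1-cKO libraries of the same replicate number carry neighbouring numbers in their deposited names, and whether they were paired is not stated. Deviations from the group means had correlations of 0.126, -0.063 and -0.079 between same-numbered libraries, which cannot decide it. The fit with the replicate block gave 63 lower and 3 higher members and a median of -0.454, with no member's call changed. Counts of the other lists under that fit are not given.

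Scaling moved the sizes. On total reads (42 lower, 5 higher) the medians of all members, large and small subunit genes were -0.251, -0.224 and -0.26, and the log2 ratios of their summed levels -0.214, -0.186 and -0.254. Without the row with the most reads (59 lower, 4 higher) the medians of all members and small subunit genes were -0.358 and -0.366 and the 3 summed levels -0.32, -0.292 and -0.361. With median centring these were -0.563, -0.532 and -0.568 for the medians and -0.526, -0.498 and -0.567 for the sums. With quantile normalization 52 were lower and 5 higher, with medians of -0.374 for all and -0.39 for small subunit genes. Relative to the median of all genes, the members' median ranged from -0.512 to -0.312. With the length and GC trend removed (52 lower, 4 higher) the medians were -0.32, -0.296 and -0.375. No share of all genes called is given for that setting or for total reads without the row with the most reads. The counts of members under both therefore cannot be set against such a share. The same holds for leaving out Ctrl 2, Upf1-cKO 1 or Upf1-cKO 3. Leaving out a library gave 56 to 67 lower and 2 to 4 higher members, medians of -0.502 to -0.423 for all, -0.497 to -0.408 for large and -0.52 to -0.446 for small subunit genes, and log2 ratios of the sums of -0.478 to -0.383, -0.457 to -0.349 and -0.507 to -0.418.

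Of the lower or higher members, *Rps3* alone changed sign, with quantile normalization (0.057, adjusted *P* = 0.538 by limma). The other reversed signs were of genes not called in the reported fit, and of them only *Rpl13a* was then called. On total reads they were *Rpl22* 0.137, *Rpl30* 0.06, *Rps14* 0.028, *Rps19* 0.027, *Rps24* 0.073, *Rpl13a* 0.2, *Rps28* 0.008, *Rpl35a* 0.037 and *Rpl17* 0.013. Without the row with the most reads they were *Rpl22* 0.03 and *Rpl13a* 0.093, and with median centring *Rpl32l* -0.09, *Vim* -0.026 and *Larp1* -0.061. With quantile normalization they were *Rpl22* 0.024, *Rps14* 0.053, *Rps24* 0.014, *Rpl13a* 0.213 (adjusted *P* = 0.0272 by limma) and *Rpl32l* -0.125. With the length and GC trend removed they were *Rpl22* 0.2, *Rpl30* 0.092, *Rps14* 0.036, *Rps24* 0.121, *Rpl13a* 0.082, *Rps28* 0.098, *Rpl35a* 0.095 and *Larp1* -0.018. Leaving out a library in turn gave ranges of *Rpl13a* -0.099 to 0.081, *Rpl32l* -0.122 to 0.206, *Rpl21* -0.486 to 0.152, *Rpl22* -0.209 to 0.144, *Rpl30* -0.339 to 0.064 and *Rpl31* -0.421 to 0.015, the sign changing without Ctrl 3 for each of these. The sign of *Rpl13a* also changed without Ctrl 2 (0.007) or Upf1-cKO 1 (0.037), and that of *Rpl32l* without Ctrl 2 (-0.117) or Upf1-cKO 2 (-0.122). *Larp1* ranged from -0.012 (without Ctrl 1) to 0.117. The cause of these moves was not tested.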
